A study of Homo sapiens with 10 samples.

Results

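The 7 genes described here encode cytoplasmic intermediate filament proteins of neurons and of their precursors, and were chosen by symbol: NEFL, NEFM, NEFH, INA, PRPH, VIM and NES. They are 7 of the 58174 genes of an RNA sequencing table of SH-SY5Y, an established human neuroblastoma line that makes catecholamines and serves as a neuron-like model. The libraries were 3 of siTDP-43 cells, which received an siRNA pool against TDP-43, and 2 of cells homozygous for the TDP-43 substitution N352S. They were compared with 3 libraries of siControl cells, given a control siRNA pool, and with 2 of cells carrying wild type TDP-43. Both siRNA pools were used at 50 nM over 96 hours, in doses at the start and at 24 hours, and the labels name no transfection for the N352S and wild type cells. The N352S cells were made by genome editing. The design text calls the libraries of a group biological replicates, but whether those of a genotype came from 1 clone or from several, and which cultures were separate, is not given in the sources used here. The p-values therefore measure only the spread between these libraries, which may be technical.

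Intermediate filaments are rope-like polymers that give cells mechanical strength. In neurons the light, medium and heavy neurofilament chains (NEFL, NEFM and NEFH) assemble together, joined by alpha-internexin (INA) in the central nervous system and by peripherin (PRPH) in peripheral neurons, and their content sets the calibre of large axons. Vimentin (VIM) is the filament of mesenchymal and precursor cells, and nestin (NES) marks neural precursors and assembles together with vimentin. Neurofilament proteins released from injured axons are measured in patients with amyotrophic lateral sclerosis (ALS), in which the RNA-binding protein TDP-43, encoded by TARDBP, leaves the nucleus of motor neurons. TDP-43 binds RNA at runs of UG and has been reported to bind NEFL mRNA.

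Because TDP-43 recognises UG repeats, the transcripts were searched for TGTGTG, written as DNA, on the transcript strand in the longest protein-coding GENCODE 29 transcript of each gene. PRPH held 5 non-overlapping matches, NEFL and INA held 1 each in the 3′ UTR, and NEFM, NEFH, VIM and NES held none. The same letters were found in 8900 of 12682 transcripts of tested protein-coding genes (70.2%). All 5 PRPH matches lay in exon 1, in the 5′ UTR of a long GENCODE transcript and upstream of the RefSeq start site. The stretch shown for PRPH (hg38, chr12:49293963-49293992, plus strand, 5′ UTR) holds 3 runs, 1 of 6 bases and 2 of 8, and 8 bases is the longest run of the transcript. The stretch of INA (chr10:103290057-103290086, plus strand, 3′ UTR in exon 3) holds 1 run of 6 bases. They are shown 5′ to 3′ because UG runs are the letters TDP-43 is known for, with every run of at least 3 TG in capitals. The stretch around the NEFL match is not shown here. A match is a description of the letters, introns were not searched, and binding was not measured.
PRPH: ggaTGTGTGatTGTGTGTGtaTGTGTGTGt
INA: cccagtctttcaTGTGTGccaaggctgatg

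Promoter windows of 300 bases, 250 before and 50 after the RefSeq start site (GRCh38.p14), were found for PRPH, VIM, INA and NES. They were searched on both strands for TATAAA, the core of the TATA box, and GGGCGG, the GC box, which cannot overlap each other. PRPH had 1 TATAAA, which began 31 bases before the start site, and no GGGCGG. VIM, INA and NES had no TATAAA and had 1, 4 and 4 matches to GGGCGG. Over 35116 windows of this length, 11.5% held TATAAA and 45% held GGGCGG. The 30 bases from 50 to 21 bases before the start site are shown 5′ to 3′ because PRPH and VIM had the largest changes in N352S cells, in opposite directions. Capitals mark a motif, which reads CCGCCC where it lies on the other strand. The windows are PRPH at chr12:49295097-49295126 (plus strand), VIM at chr10:17228191-17228220 (plus strand), INA at chr10:103277088-103277117 (plus strand) and NES at chr1:156677428-156677457 (minus strand). The PRPH window also lies within exon 1 of the long GENCODE transcript.
PRPH: ccccctgagaccgcagggcTATAAAgccgc
VIM: acggGGGCGGggactctgcaagaaaaacct
INA: gcgCCGCCCcagccccggcgccttaaaagc
NES: CCGCCCgcctggcgggagtatgaatagcct

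Levels are TPM, transcript abundance per length scaled to the same total in all libraries. Sequencing depth cannot be read from TPM, and no interval for counting error is given. In these bulk samples fewer cells of a type and less RNA per cell cannot be told apart. The libraries held 16711 to 17398 genes of at least 1 TPM, and replicates correlated at 0.977 to 0.990 across genes. TARDBP, the siRNA target, had 62.3, 63.1 and 67.7 TPM in siTDP-43 libraries, against 255.5, 255.6 and 256.3 TPM in siControl libraries. It had 122.8 and 122.3 TPM in N352S libraries, against 195.5 and 205.4 TPM in wild type libraries. Other genes of distal chromosome 1p, where TARDBP lies, were also lower in N352S cells, as given below. The sympathetic marker DBH, the enzyme that makes noradrenaline, was present in each group, with 1328 to 1651 TPM on average. Tyrosine hydroxylase (TH), which starts catecholamine synthesis, averaged only 0.69 to 2.76 TPM. The Schwann cell factor SOX10 averaged at most 0.225 TPM and the mesenchymal factor PRRX1 at most 0.22 TPM in a group. Other markers listed for these cell types were present in each group. The mesenchymal marker LGALS1 averaged 756 to 1496 TPM and the Schwann cell marker PMP22 28.9 to 59.5 TPM.

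The design asks what loss of TDP-43 and its N352S substitution each change in gene expression. After TDP-43 knockdown NEFM rose to 158.3% of its control level, while NES, PRPH and VIM fell to between 71.0% and 85.7%. In N352S cells PRPH fell to 6.29% of its wild type level, VIM rose to 190.2% and NEFH to 136.6%, while NEFL, NEFM and INA fell to between 72.6% and 79.0%. All 7 members had a mean of at least 1 TPM and were tested among 17118 genes, with log2(TPM + 1) fitted for all 4 groups in limma and called at a Benjamini-Hochberg adjusted p under 0.05. In the knockdown 1 member was called higher, where 6.19% of tested genes were, and 3 were called lower, where 19.8% were, so that 4 of 7 were called against 26% of genes. In N352S cells 2 members were called higher and 4 lower, against 8.28% and 11.9% of genes, which makes 6 of 7 against 20.2%. Ranges of the compared groups were separate for 7 of 7 members in each comparison, as for 43.6% of genes in the knockdown and 60.1% in N352S cells. Over all genes the knockdown gave 1059 higher and 3389 lower, and the split was 1944 to 2077 under median-of-ratios scaling and 1932 to 2015 after quantile normalization.

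**Figure D1:**
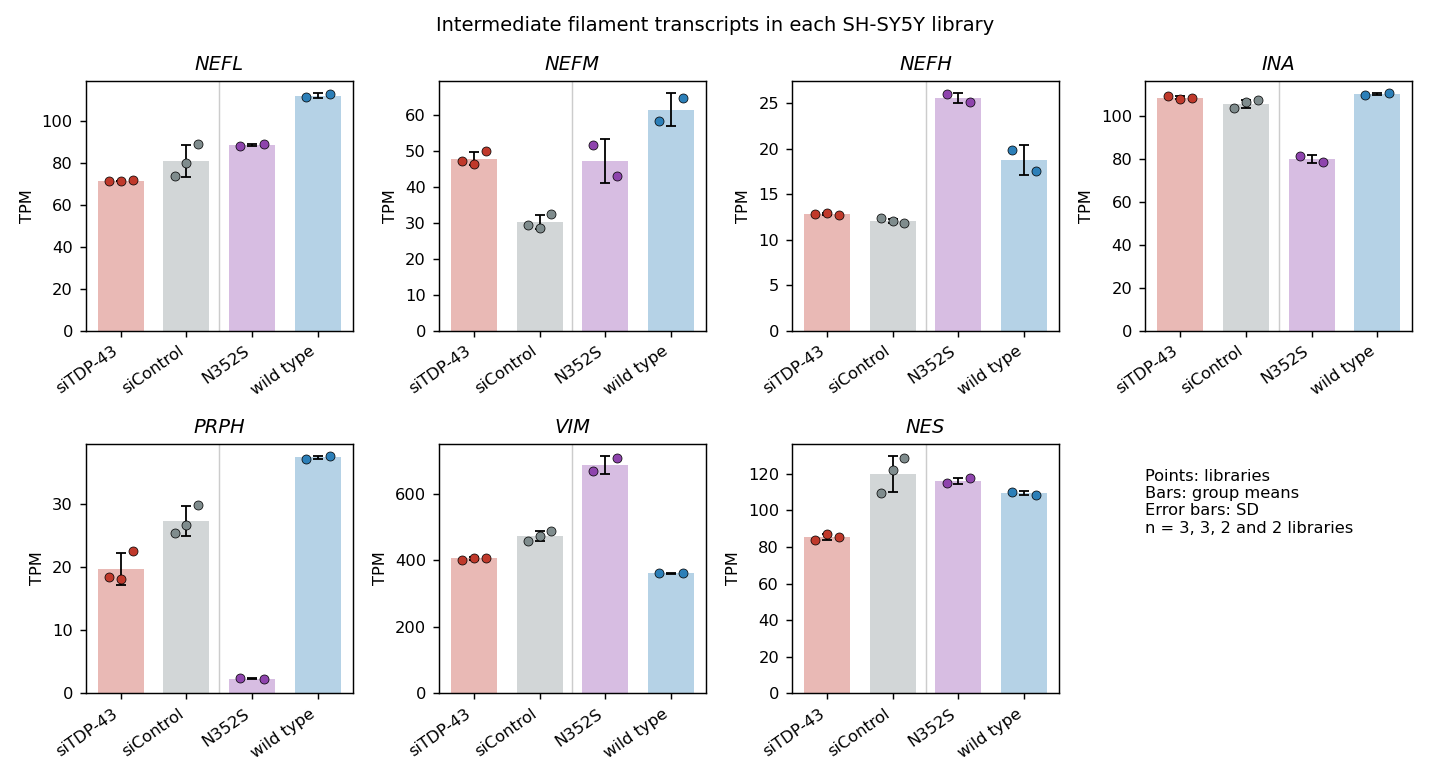
TPM of the 7 intermediate filament genes (panels) plotted as 1 point for each of 3 siTDP-43, 3 siControl, 2 N352S and 2 wild type libraries, where each bar is the group mean and its error bar the SD. PRPH stands at 2.38 and 2.33 TPM in N352S libraries, against 37.2 and 37.6 TPM in wild type libraries, and VIM is highest in N352S libraries.

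Among the neurofilament chains, NEFM (ENSG00000104722, chromosome 8, 24913012 to 24919098, plus strand), the medium chain, had 47.2, 46.4 and 49.9 TPM in siTDP-43 libraries, against 29.5, 28.7 and 32.5 TPM in siControl libraries. Each siTDP-43 library was above each siControl library, and the means were 47.8 ± 1.80 TPM in siTDP-43 and 30.2 ± 1.98 TPM in siControl libraries (SD, n = 3 each), a ratio of 1.58. The rise was 0.65 ± 0.08 on the log2(TPM + 1) scale (SE, limma adjusted p = 0.00052). It was the 258th highest change of the 17118 genes, and it was called in all 21 alternatives, among them median-of-ratios scaling, quantile normalization and the removal of any library. In N352S libraries NEFM had 51.6 and 42.99 TPM, against 58.2 and 64.8 TPM in wild type libraries. It fell by 0.38 ± 0.09 (log2, adjusted p = 0.023), but this call was lost without N352S replicate 82 (log2 -0.25, adjusted p = 0.12), without wild type replicate 80 (-0.30, adjusted p = 0.13), in a fit of only these groups (adjusted p = 0.099) and when genes of any TPM were kept (adjusted p = 0.052). Over its 20 alternatives the adjusted p lay between 0.011 and 0.13.

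NEFL (ENSG00000277586, chromosome 8, 24950955 to 24957110, minus strand), the light chain on which the filament core is built, is the neighbour of NEFM. It had 71.5, 71.5 and 71.7 TPM in siTDP-43 libraries, against 73.7, 80.3 and 88.9 TPM in siControl libraries. The siTDP-43 libraries were all below the siControl libraries, which were themselves spread (80.9 ± 7.65 TPM). With a log2 fold change of -0.17 ± 0.06 NEFL was not called (limma adjusted p = 0.063), but it was called with a mean of at least 5 TPM (adjusted p = 0.049), with array weights (0.024) and without siControl replicate 1 (log2 -0.24, adjusted p = 0.0092). Over 21 alternatives the adjusted p lay between 0.0092 and 0.32. In N352S libraries NEFL had 88.3 and 89.1 TPM, against 111.3 and 113.1 TPM in wild type libraries. It fell by 0.34 ± 0.07 (log2, adjusted p = 0.011), to 79.0% of wild type. Without N352S replicate 81, N352S replicate 82, wild type replicate 79 or wild type replicate 80 the log2 fold change lay between -0.35 and -0.32 and the adjusted p between 0.050 and 0.061, just past the threshold in each. Over 20 alternatives the adjusted p lay between 0.0016 and 0.061.

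NEFH (ENSG00000100285, chromosome 22, 29480230 to 29491390, plus strand), the heavy chain with the long phosphorylated tail, was the least abundant of the 3 chains in every library. It had 12.8, 13.0 and 12.7 TPM in siTDP-43 libraries, against 12.3, 12.0 and 11.9 TPM in siControl libraries, a difference that was not called (log2 0.08 ± 0.05, limma adjusted p = 0.33). In N352S libraries NEFH had 26.0 and 25.1 TPM, against 19.9 and 17.5 TPM in wild type libraries. It rose to 136.6% of wild type (log2 0.43 ± 0.07, adjusted p = 0.0024), and this held in all 20 alternatives. In N352S cells the heavy chain transcript was higher and those of the light and medium chains were lower.

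The balance of the 3 chains was read as shares within a library, which a scale factor does not change. NEFM made up 36.2 ± 0.87% of the summed chain TPM in siTDP-43 libraries and 24.5 ± 0.93% in siControl libraries (SD, n = 3 each), while NEFL made up 54.1 ± 0.66% in siTDP-43 and 65.6 ± 1.62% in siControl libraries. The ratio of NEFL to NEFM was 1.52, 1.54 and 1.44 in siTDP-43 libraries and 2.495, 2.80 and 2.74 in siControl libraries. NEFH held 9.69 ± 0.22% in siTDP-43 and 9.84 ± 0.89% in siControl libraries, ranges that overlapped. In N352S libraries NEFH held 15.8 ± 0.24% of the chains, against 9.74 ± 1.08% in wild type libraries (SD, n = 2 each). The shares of NEFL were 53.2% and 56.7% in N352S libraries, against 58.8% and 57.9% in wild type libraries, and those of NEFM, at 31.1% and 27.3% in N352S libraries, overlapped the 30.7% and 33.1% of wild type libraries. The summed chains reached 132.2 ± 1.76 TPM in siTDP-43 and 123.2 ± 9.08 TPM in siControl libraries, which overlapped, and 161.5 ± 6.10 TPM in N352S against 192.4 ± 4.26 TPM in wild type libraries.

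**Figure D2:**
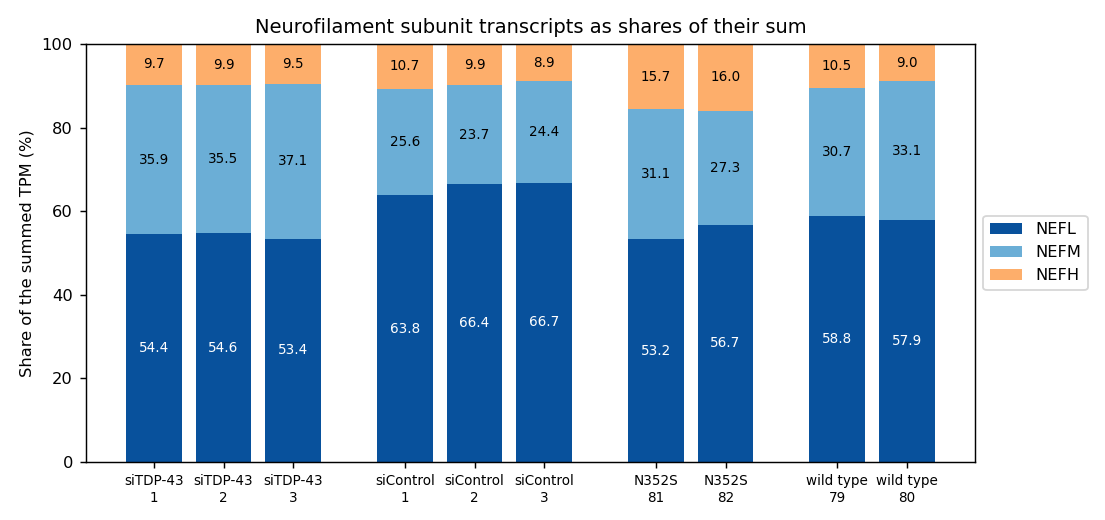
Share of NEFL, NEFM and NEFH (colours) in the summed TPM of the 3 chains, in percent, for each library (bars, labelled by group and replicate number). NEFM takes 35.5 to 37.1% in siTDP-43 libraries, against 23.7 to 25.6% in siControl libraries, and NEFH takes 15.7 and 16.0% in N352S libraries, against 10.5 and 9.0% in wild type libraries.

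INA (ENSG00000148798, chromosome 10, 103277163 to 103290351, plus strand), alpha-internexin, is the filament that developing neurons make before the neurofilament chains. It had the smallest fold change of the members in the knockdown, with 109.2, 108.0 and 108.2 TPM in siTDP-43 libraries, against 103.6, 106.3 and 107.2 TPM in siControl libraries. The groups were close without overlapping, and the difference was not called (log2 0.04 ± 0.03, limma adjusted p = 0.40). It was called higher under median-of-ratios scaling (log2 0.12, adjusted p = 0.012) and quantile normalization (0.13, adjusted p = 0.0090), and over 21 alternatives the adjusted p lay between 0.0090 and 0.65. In N352S libraries INA had 81.3 and 78.5 TPM, against 109.8 and 110.5 TPM in wild type libraries. It fell to 72.6% of wild type (log2 -0.46 ± 0.04, adjusted p = 5.5e-05), a call kept in all 20 alternatives.

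PRPH (ENSG00000135406, chromosome 12, 49293252 to 49298686, plus strand), peripherin, is the type III filament of peripheral and autonomic neurons and is raised by nerve injury. It had 2.38 and 2.33 TPM in N352S libraries, against 37.2 and 37.6 TPM in wild type libraries, which is 6.29% of wild type or a 15.9-fold lower level. The fall of 3.52 ± 0.11 on the log2(TPM + 1) scale (limma adjusted p = 2.6e-07) was the 6th most negative of 17118 genes. With any 1 library left out it lay between -3.53 and -3.51, and it was -3.93 with a pseudocount of 0.1 and -2.53 with a pseudocount of 5. In the knockdown PRPH had 18.4, 18.2 and 22.6 TPM in siTDP-43 libraries, against 25.4, 26.7 and 29.9 TPM in siControl libraries. It fell to 72.2% of control (log2 -0.45 ± 0.09, adjusted p = 0.0061), a smaller change in the same direction that was called in all 21 alternatives.

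VIM (ENSG00000026025, chromosome 10, 17228259 to 17237593, plus strand), vimentin, was the most abundant member in every library. It had 668 and 707 TPM in N352S libraries, against 361 and 362 TPM in wild type libraries, a ratio of 1.90. The rise of 0.92 ± 0.04 (log2, limma adjusted p = 2.1e-06) was the 302nd highest of all tested genes, and the N352S libraries were above the libraries of each other group. In the knockdown VIM had 401, 408 and 408 TPM in siTDP-43 libraries, against 458, 474 and 489 TPM in siControl libraries. It fell to 85.7% of control (log2 -0.22 ± 0.03, adjusted p = 0.0020). The fall was smaller under median-of-ratios scaling (log2 -0.14) and quantile normalization (-0.10), and it was called in both (adjusted p = 0.022 and 0.028). Over 21 alternatives its adjusted p lay between 0.00054 and 0.028.

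NES (ENSG00000132688, chromosome 1, 156668763 to 156677397, minus strand), nestin, had 83.5, 86.9 and 85.3 TPM in siTDP-43 libraries, against 109.2, 122.3 and 128.6 TPM in siControl libraries. All siTDP-43 libraries were below all others of the table, and the fall to 71.0% of control (log2 -0.49 ± 0.05, limma adjusted p = 0.00040) was called in all 21 alternatives. In N352S libraries NES had 115.0 and 117.4 TPM, against 110.25 and 108.6 TPM in wild type libraries, a difference that was not called (log2 0.09 ± 0.07, adjusted p = 0.42). Nestin and vimentin, which assemble together, fell together in the knockdown, but in N352S cells VIM was called and NES was not. The ratio of VIM to NES was 4.76 ± 0.05 in siTDP-43 and 3.95 ± 0.21 in siControl libraries, and 5.92 ± 0.15 in N352S against 3.30 ± 0.05 in wild type libraries.

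**Figure D3:**
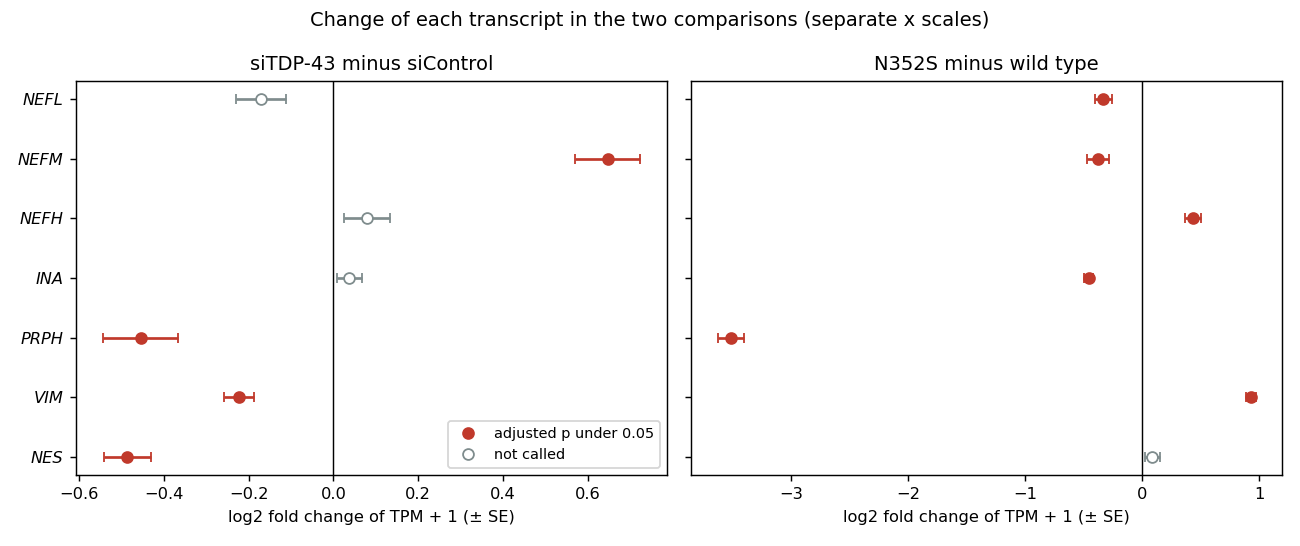
Log2 fold change of TPM + 1 with its SE (horizontal bars) for each gene, siTDP-43 minus siControl (left) and N352S minus wild type (right), on separate x scales. Filled red points passed an adjusted p of 0.05. NEFM is at 0.65 in the knockdown and -0.38 in N352S cells, and VIM at -0.22 in the knockdown and 0.92 in N352S cells.

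One siControl library touched several of these values. Replicate 3 of siControl had the highest TPM of its group for NEFL, NEFM, INA, PRPH, VIM and NES, and the lowest share of mitochondrially encoded transcripts (12.0%), where its fellow replicates had 14.3% and 13.7% and siTDP-43 libraries 15.5 to 16.2%. Without it the calls of NEFM, PRPH, VIM and NES remained. The part of the mitochondrial share in these changes was not tested beyond leaving those genes out, where each member kept its call.

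The effects of the knockdown and of N352S were compared in the same fit. The difference between them was called for 6 of the 7 members, against 22% of tested genes, with NEFL as the exception (difference 0.17 ± 0.09, limma adjusted p = 0.25). NEFM (difference 1.02 ± 0.12) and VIM (-1.15 ± 0.05) moved in opposite directions in the experiments. PRPH fell in both and by more in N352S cells (difference 3.06 ± 0.14). INA (difference 0.50 ± 0.05) and NEFH (-0.35 ± 0.09) were called in N352S cells and not in the knockdown. NES (-0.57 ± 0.09) was called in the knockdown and not in N352S cells. The NEFH difference was not called without N352S replicate 81 (-0.33, adjusted p = 0.062) or without wild type replicate 80 (-0.27, adjusted p = 0.069), and over 19 alternatives its adjusted p lay between 0.013 and 0.069. The NEFL difference was called without siControl replicate 3 (0.23, adjusted p = 0.029), with a range of 0.029 to 0.41 over 19 alternatives.

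**Figure D4:**
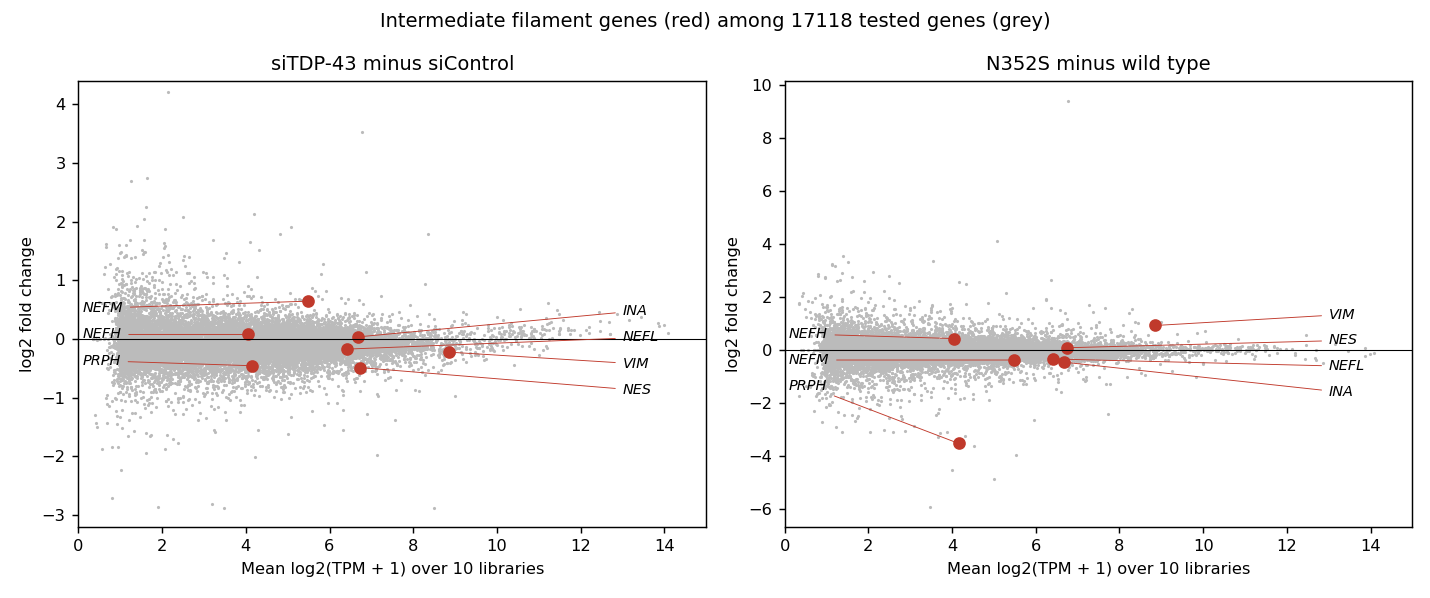
Log2 fold change (y axis) against mean log2(TPM + 1) over the 10 libraries (x axis) for 17118 tested genes (grey) and the 7 intermediate filament genes (red), siTDP-43 minus siControl on the left and N352S minus wild type on the right. PRPH, at -3.52, lies near the lower edge of all genes in N352S cells, and NEFM, at 0.65, is the highest red point in the knockdown.

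Across the 4 groups each gene had its own order of levels. NEFL and NEFM were highest in wild type libraries, and their neighbours in the order that overlapped were N352S and siControl for NEFL (88.7 TPM in N352S and 80.9 TPM in siControl libraries) and siTDP-43 and N352S for NEFM (47.8 TPM in siTDP-43 and 47.3 TPM in N352S libraries). NEFH was ordered N352S, wild type, siTDP-43 and siControl, INA wild type, siTDP-43, siControl and N352S, and PRPH wild type, siControl, siTDP-43 and N352S, with no overlap between neighbours. VIM ran N352S, siControl, siTDP-43 and wild type, also with no overlap, and NES siControl, N352S, wild type and siTDP-43, where siControl and N352S overlapped. The siControl and wild type cells differed as well. Wild type libraries stood at 2.03 times the siControl level for NEFM, 1.55 times for NEFH, 1.39 times for NEFL, 1.37 times for PRPH and 0.764 times for VIM, and these ratios were not tested. Editing, transfection and the experiment cannot be told apart there.

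The make-up of the 7 transcripts differed in N352S cells. NEFL, NEFM, NEFH, INA and PRPH together made up 23.3 ± 1.24% of the TPM of the 7 genes in N352S libraries and 41.9 ± 0.35% in wild type libraries (SD, n = 2 each), while VIM made up 65.6 ± 1.30% in N352S and 44.6 ± 0.12% in wild type libraries. Summed, the 5 neuronal filament genes had 243.8 ± 8.10 TPM in N352S and 340.0 ± 5.04 TPM in wild type libraries. In the knockdown the same sum was 260.5 ± 4.14 TPM in siTDP-43 and 256.2 ± 13.1 TPM in siControl libraries, which overlapped, and the neuronal share was 34.7 ± 0.43% in siTDP-43 and 30.2 ± 0.29% in siControl libraries (SD, n = 3 each).

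The chromosomal surroundings of the members were described over the 10 tested protein-coding genes on each side. In N352S cells the 20 neighbours of PRPH had a median log2 fold change of -0.06, with 1 called higher and 3 lower, and all 20 were above PRPH. The lowest of them, named after their values were seen, were AC073610.5 (-2.29) and C1QL4 (-1.02). The 20 neighbours of VIM had a median of -0.08, with 1 called higher and 6 lower, and all were below VIM. Those of NEFH had a median of 0.01 and were all below NEFH, and 19 of the 20 neighbours of INA were above INA. In the knockdown the 20 neighbours of NEFM, NEFL among them, had a median of -0.16 and were all below NEFM. TARDBP is not a member, and its neighbours were not read in this way. On distal chromosome 1p, where it lies, DNAJC11 (-1.19), H6PD (-0.87) and NADK (-0.85) were called lower in N352S cells. CLCN6 (0.005) and PER3 (-0.09), also there, were not called. These genes were named after their values were seen. Whether N352S and wild type cells differ by more than the substitution was not tested.

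**Figure D5:**
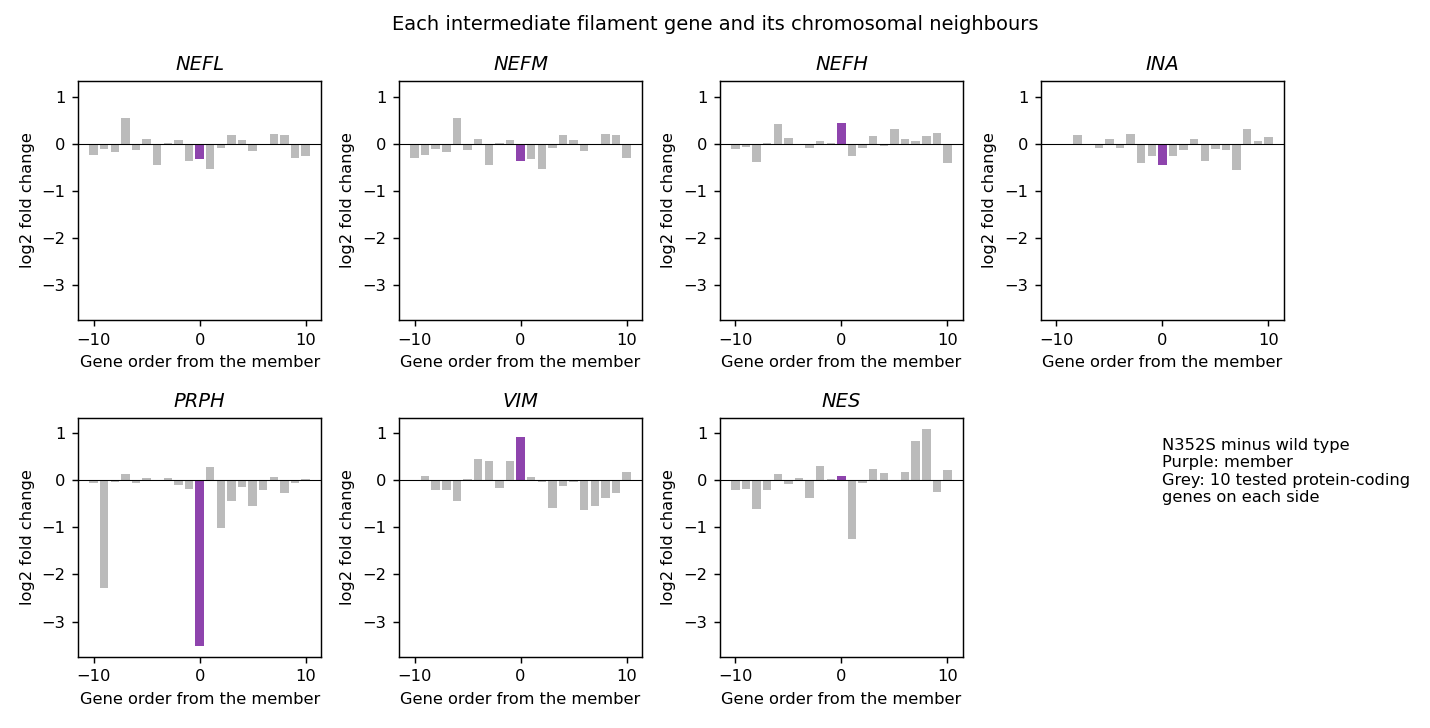
Log2 fold change of N352S minus wild type (y axis) for each intermediate filament gene (purple) and the 10 tested protein-coding genes on each side of it (grey), by gene order along the chromosome (x axis, negative towards lower coordinates). All 20 neighbours of PRPH lie above it and all 20 neighbours of VIM lie below it.

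Antisense genes overlap 5 of the members, and since strand-specific counting is not stated, their reads cannot be told apart from those of the member. VIM (687 TPM in N352S and 362 TPM in wild type libraries on average) is overlapped by AL133415.1, at 4.08 TPM in N352S and 2.27 TPM in wild type libraries, and by VIM-AS1, at 0.95 TPM in N352S and 0.785 TPM in wild type libraries. PRPH lies inside AC125611.4, which averaged 0.14 TPM in N352S and 0.97 TPM in wild type libraries. NEFM is overlapped by AF106564.1, at 3.30 ± 0.31 TPM in siTDP-43 and 4.76 ± 0.45 TPM in siControl libraries. The antisense genes at NEFL and NEFH were listed at 0 in every library.

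Genes with the most similar pattern were sought among 9273 other protein-coding genes of at least 10 TPM, by the root mean square difference between log2 profiles centred on their own mean over the 10 libraries. PRPH was closest to TNFRSF1A, a receptor for tumour necrosis factor (difference 0.46), and to S100A11 (0.52). These differences are larger than those of the other members, but they are not scaled to the size of a profile. The centred profile of PRPH itself had a root mean square of 1.25, against 0.17 (INA) to 0.40 (NEFH) for the other members. TNFRSF1A averaged 1.37 TPM in N352S and 18.3 TPM in wild type libraries, and 19.9 TPM in siTDP-43 and 20.4 TPM in siControl libraries. NEFM was closest to the kinesin KIFC3 (0.15) and the deacetylase HDAC10 (0.16), and NEFL to MANF (0.06), an endoplasmic reticulum stress-induced secreted factor, and APC2 (0.06). NEFH was closest to QSOX1 (0.06) and DTNB (0.07), and INA to URB1 (0.05) and the amino acid transporter SLC38A2 (0.05). VIM was closest to IER5 (0.09) and the kinase JAK1 (0.10), and NES to ANXA2 (0.05), which encodes annexin A2, and LMBR1 (0.05). Between the members themselves the smallest difference was that of NEFL and NES (0.21), while NEFL and NEFM differed by 0.33. The centred profiles of NEFL and NES themselves had a root mean square of 0.24 and 0.21. Their difference is thus about as large as the profiles and does not show likeness.

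Of 17 other intermediate filament genes (keratins, lamins, and muscle, lens and glial filaments), 7 were tested. In the knockdown 2 rose and 2 fell, where 6.19% and 19.8% of tested genes did. The list median log2 fold change was 0.06, against -0.08 for all tested genes. In N352S cells none rose and 5 fell by limma, where 8.28% and 11.9% of tested genes did. The list median was -0.45, against -0.03 for all tested genes, and 1 gene of the list was higher at an unadjusted p under 0.05. The 10 others averaged under 1 TPM over all libraries, among them the epithelial keratins KRT8 and KRT18, the muscle filament DES and the astrocyte filament GFAP. LMNB1, which encodes nuclear lamin B1, fell in N352S cells, with 99.1 ± 3.53 TPM in N352S and 136 ± 6.70 TPM in wild type libraries (SD, n = 2 each, log2 -0.45, limma adjusted p = 0.0021). LMNB2, which encodes lamin B2, fell there too, with 54.0 ± 0.622 TPM in N352S and 67.5 ± 0.552 TPM in wild type libraries. LMNA, which encodes lamins A and C, was not called, at 250.2 ± 14.5 TPM in N352S and 222 ± 1.17 TPM in wild type libraries (adjusted p = 0.058), but was called higher in 4 of 20 alternatives. In the knockdown LMNA was not called, at 159 ± 6.06 TPM in siTDP-43 and 152 ± 5.34 TPM in siControl libraries (SD, n = 3 each), but was called higher in 2 of 21 alternatives. LMNB1 was not called in the knockdown, at 134 ± 4.02 TPM in siTDP-43 and 148 ± 10.8 TPM in siControl libraries. LMNB2 fell in the knockdown, with 64.8 ± 2.29 TPM in siTDP-43 and 71.7 ± 3.73 TPM in siControl libraries, a call lost in 16 of 21 alternatives.

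Keratin and synemin transcripts moved differently in the experiments. KRT10, which encodes a keratin of differentiating epidermis, rose in the knockdown, with 32.7 ± 1.12 TPM in siTDP-43 and 25.7 ± 0.913 TPM in siControl libraries. In N352S cells KRT10 fell, with 15.3 ± 0.141 TPM in N352S and 30.1 ± 2.52 TPM in wild type libraries. SYNM, which encodes synemin, a partner of vimentin and desmin, rose in the knockdown, with 9.55 ± 0.445 TPM in siTDP-43 and 7.72 ± 0.487 TPM in siControl libraries, a call lost in 5 of 21 alternatives. In N352S cells SYNM fell, with 3.61 ± 0.255 TPM in N352S and 6.72 ± 0.226 TPM in wild type libraries. The keratin gene KRT80 fell in both, with 1.74 ± 0.0896 TPM in siTDP-43 and 3.12 ± 0.266 TPM in siControl libraries, and with 1.23 ± 0.233 TPM in N352S and 4.04 ± 0.00707 TPM in wild type libraries.

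Genes whose products link, modify, carry or fold filaments were read from lists of known regulators. Counts of these lists and of the marker lists below stand beside those of all tested genes. In the knockdown 6.19% of tested genes were called higher and 19.8% lower, with a median of -0.08. In N352S cells 8.28% were called higher and 11.9% lower, with a median of -0.03. Where none of a list rose or fell by limma in what follows, none did so at an unadjusted p under 0.05 either, apart from 1 motor that was lower in N352S cells and 1 neuronal marker that was higher in the knockdown. Of 9 listed linkers and turnover factors 5 were tested, and 2 fell and none rose in the knockdown (list median -0.21), while 1 rose and none fell in N352S cells (-0.02). The lower genes encode plakins, which tie filaments to other parts of the cytoskeleton. DST had 104 ± 3.52 TPM in siTDP-43 and 122 ± 2.31 TPM in siControl libraries, a call lost in 2 of 21 alternatives, and MACF1 had 86.9 ± 3.49 TPM in siTDP-43 and 101 ± 1.72 TPM in siControl libraries, a call lost in 6 of 21. DST was also the higher gene in N352S cells, with 94.7 ± 3.61 TPM in N352S and 81.1 ± 4.42 TPM in wild type libraries, a call lost in 3 of 20.

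Of 17 kinases and related enzymes, 8 fell and none rose in the knockdown (median -0.22), and 3 fell and 1 rose in N352S cells (0.04). CDK5, a kinase of neurofilament tails, fell in the knockdown, with 77.1 ± 0.813 TPM in siTDP-43 and 96.8 ± 3.83 TPM in siControl libraries. The mitotic kinase gene PLK1 fell there too, with 74.5 ± 1.80 TPM in siTDP-43 and 98.3 ± 6.86 TPM in siControl libraries. In N352S cells the CDK5 activator gene CDK5R1 fell, with 12.1 ± 1.09 TPM in N352S and 19.2 ± 1.22 TPM in wild type libraries. GSK3A also fell there, with 84.9 ± 0.134 TPM in N352S and 97.6 ± 1.17 TPM in wild type libraries, a call lost in 3 of 20 alternatives.

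Of 5 motor genes 2 fell and none rose in the knockdown (median -0.20), and 1 rose and none fell in N352S cells (-0.06). The neuronal kinesin gene KIF5C fell in the knockdown, with 52.3 ± 1.33 TPM in siTDP-43 and 95.9 ± 6.39 TPM in siControl libraries. In N352S cells KIF5C rose, with 101 ± 2.76 TPM in N352S and 78.4 ± 2.59 TPM in wild type libraries. KIF5B, the widely expressed form, fell in the knockdown, with 127 ± 4.93 TPM in siTDP-43 and 146 ± 12.6 TPM in siControl libraries, a call lost in 15 of 21 alternatives. Of 9 chaperones and proteases 8 were tested, and 5 fell and none rose in the knockdown (median -0.13), while 2 rose and 2 fell in N352S cells (-0.05). The calpain genes, whose products cleave neurofilaments, fell in the knockdown, CAPN1 with 50.5 ± 2.04 TPM in siTDP-43 and 61.0 ± 1.23 TPM in siControl libraries and CAPN2 with 71.4 ± 0.371 TPM in siTDP-43 and 80.0 ± 1.00 TPM in siControl libraries, the second call lost in 2 of 21 alternatives. In N352S cells CAPN2 rose, with 91.3 ± 2.07 TPM in N352S and 77.1 ± 2.14 TPM in wild type libraries. The chaperone gene HSPA8 fell in N352S cells, with 626 ± 12.7 TPM in N352S and 912 ± 11.2 TPM in wild type libraries. DNAJB6, a co-chaperone, fell there too, with 135 ± 3.86 TPM in N352S and 163 ± 7.25 TPM in wild type libraries, a call lost in 9 of 20 alternatives.

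Markers of the cell types that use these filaments were read beside them. The shares over all tested genes are again 6.19% higher and 19.8% lower in the knockdown, and 8.28% and 11.9% in N352S cells. Of 12 neuronal markers 11 were tested, of which 5 fell and none rose in the knockdown (median -0.13), and 3 rose and 2 fell in N352S cells (-0.02). The growth cone protein gene GAP43 fell in the knockdown, with 46.7 ± 0.802 TPM in siTDP-43 and 74.2 ± 1.91 TPM in siControl libraries. SNAP25, of vesicle fusion, fell with 62.3 ± 1.41 TPM in siTDP-43 and 83.0 ± 3.47 TPM in siControl libraries, and the adhesion molecule gene NCAM1 with 71.2 ± 1.499 TPM in siTDP-43 and 87.7 ± 1.03 TPM in siControl libraries. In N352S cells DCX, of migrating neurons, fell, with 37.0 ± 0.721 TPM in N352S and 61.4 ± 0.382 TPM in wild type libraries. NCAM1 rose there, with 112 ± 5.85 TPM in N352S and 85.8 ± 0.332 TPM in wild type libraries, and so did GAP43, with 154 ± 0.240 TPM in N352S and 128 ± 3.76 TPM in wild type libraries. Of 15 noradrenergic genes 6 rose and 4 fell in the knockdown (median 0.06), and 4 rose and 5 fell in N352S cells (0.05). The granule protein gene CHGA rose in the knockdown, with 2337 ± 66.5 TPM in siTDP-43 and 1646 ± 40.5 TPM in siControl libraries, and so did GATA3, with 156 ± 5.47 TPM in siTDP-43 and 121 ± 3.95 TPM in siControl libraries. The receptor gene RET fell, with 158 ± 5.17 TPM in siTDP-43 and 207 ± 5.76 TPM in siControl libraries. In N352S cells the noradrenaline transporter gene SLC6A2 rose, with 305 ± 15.2 TPM in N352S and 158 ± 5.65 TPM in wild type libraries, and TBX2 rose, with 42.7 ± 1.66 TPM in N352S and 24.5 ± 0.276 TPM in wild type libraries. The decarboxylase gene DDC fell there, with 159.8 ± 4.32 TPM in N352S and 258 ± 5.42 TPM in wild type libraries.

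Mesenchymal markers, of the cells in which vimentin is the main filament, were split. Of 17 listed, 12 were tested, of which 4 rose and 2 fell in the knockdown (median 0.12), and 5 rose and 4 fell in N352S cells (-0.05). Their summed level was 2327 to 2355 TPM in N352S libraries, against 1527 to 1617 TPM in wild type libraries. It was 1570 to 1619 TPM in siTDP-43 libraries, against 1284 to 1350 TPM in siControl libraries. Most of it came from LGALS1 and MMP2, which together had 1973 to 2008 TPM in N352S libraries, against 1232 to 1294 TPM in wild type libraries. The other 15 genes summed to 346.2 to 353.9 TPM in N352S libraries, against 295.0 to 322.6 TPM in wild type libraries. That sum was not shared evenly, by genes named after their values were seen. TWIST1, the largest of the 15, averaged 212.6 TPM in N352S and 137.3 TPM in wild type libraries. SPARC, the next largest, was lower, at 75.7 TPM in N352S and 99.2 TPM in wild type libraries. The part of these markers in the VIM result was not tested. The lectin gene LGALS1 rose in N352S cells, with 1496 ± 20.7 TPM in N352S and 963 ± 30.5 TPM in wild type libraries. The metalloproteinase gene MMP2 rose in both, with 495 ± 4.29 TPM in N352S and 299.7 ± 13.6 TPM in wild type libraries, and with 373 ± 23.8 TPM in siTDP-43 and 194 ± 12.9 TPM in siControl libraries. The collagen gene COL3A1 fell in N352S cells, with 4.62 ± 0.255 TPM in N352S and 13.2 ± 1.92 TPM in wild type libraries, and rose in the knockdown, with 45.0 ± 2.34 TPM in siTDP-43 and 28.7 ± 0.465 TPM in siControl libraries. NOTCH2, a Notch receptor, fell in the knockdown, with 10.0 ± 0.486 TPM in siTDP-43 and 15.7 ± 0.990 TPM in siControl libraries.

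Markers of Schwann cells and of neural progenitors were uneven, and those too low to be tested include SOX10 of the first and SOX2 and PAX6 of the second. Of 7 Schwann cell genes 4 were tested, of which 2 fell and none rose in the knockdown (median -0.31), and 1 rose and none fell in N352S cells (0.04). The myelin gene PMP22 fell in the knockdown, with 28.9 ± 0.843 TPM in siTDP-43 and 51.9 ± 0.487 TPM in siControl libraries, and rose in N352S cells, with 59.5 ± 3.85 TPM in N352S and 47.7 ± 4.29 TPM in wild type libraries, the second call lost in 3 of 20 alternatives. Of 8 progenitor genes, the class that nestin marks, 4 were tested. In the knockdown, where NES fell, 2 rose and none fell (median 0.30), namely SOX9, with 5.78 ± 0.239 TPM in siTDP-43 and 2.08 ± 0.330 TPM in siControl libraries, and HES1, with 2.29 ± 0.0462 TPM in siTDP-43 and 1.13 ± 0.354 TPM in siControl libraries. In N352S cells none of these 4 was called by limma (0.03), and 0 had an unadjusted p under 0.05. The summed progenitor markers ranged from 34.9 to 36.4 TPM in siTDP-43 libraries and from 30.5 to 35.4 TPM in siControl libraries, and in each of these groups 2 of the 8 genes were listed at 0 in every library. Most of the sum was MSI1, an RNA-binding protein of progenitors, named after its values were seen, at 25.1 TPM in siTDP-43 and 26.0 TPM in siControl libraries.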

How the data were processed

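The authors deposited 1 table of gene TPM for 10 libraries of total RNA (Trizol lysis, TruSeq kit, per the labels' protocols). The submitters' processing notes name STAR, RSEM and the build hg38. No tool version or gene annotation is given in the sources used here. Every library has the same TPM total, so depth is unknown, and a gain of some transcripts lowers the share of the rest.

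For 17118 genes averaging 1 TPM or more over all libraries, values were analysed as log2(TPM + 1) in limma 3.58.1 (R 4.3.3), with 4 group means, a mean-variance trend, 6 residual degrees of freedom and Benjamini-Hochberg adjustment over all tested genes. The knockdown contrast is siTDP-43 over siControl, the mutation contrast N352S over wild type, and the third is the knockdown effect less the N352S effect. The fit was tested on simulated data. Fold changes of low genes are understated by the pseudocount. Positions came from GENCODE 29 (57836 of 58174 identifiers matched), and promoter windows from RefSeq (GRCh38.p14).

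The siTDP-43 and siControl titles share the numbers 1 to 3. After group means were removed, libraries of 1 number correlated at 0.34, 0.14 and 0.20 across genes, each over 0.1. Libraries of unlike numbers correlated at -0.27 to 0.09, below each pair of 1 number. The main fit did not pair them, so its p-values are unpaired, and a fit with the number as a block was run as an alternative.

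The members and gene lists were chosen with earlier results of these data known. Named genes are the members, TARDBP, up to 3 called genes per list and comparison with the smallest adjusted p, other intermediate filament genes of at least 50 TPM, and the 2 nearest profiles per member. Some genes that this rule or the lists include are not reported here by name; the counts over lists include them. Markers given as a check of the cell line, genes named as low, and genes named after their values were seen were chosen outside this rule. Alternatives were pseudocounts of 0.1 and 5, no filter or a mean of at least 5 TPM, median-of-ratios scaling, quantile normalization, mitochondrially encoded genes left out, a fit of only the groups compared, no trend, array weights, the block, and each library left out in turn. Matplotlib 3.10.9 drew the figures.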

Additional observations from a re-analysis of the deposited data

Results flagged for a closer look

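The effect of the knockdown and that of N352S differed, by the difference of the contrasts in limma, for 6 of the 7 filament genes. The difference, knockdown minus N352S, was 1.02 ± 0.12 on the log2 scale for NEFM (SE, adjusted p = 0.00053), 3.06 ± 0.14 for PRPH (adjusted p = 3e-06), -1.15 ± 0.05 for VIM (adjusted p = 3.8e-06), 0.50 ± 0.05 for INA (adjusted p = 0.00016), -0.57 ± 0.09 for NES (adjusted p = 0.0019) and -0.35 ± 0.09 for NEFH (adjusted p = 0.020). For NEFM each siTDP-43 library was above and each N352S library below its own controls. For TARDBP, the siRNA target, the difference was -1.27.

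Of the 35 list genes named, 12 (34.3%) were called in both comparisons in opposite directions and also differed by this test, as did 656 of the 17118 tested genes (3.83%). Nearly all of the 35 were named for a small adjusted p in a comparison, so these shares are not alike in how their genes were chosen. The difference was positive for KRT10 (1.27), SYNM (1.02), CHGA (0.90) and COL3A1 (1.97), which were higher in siTDP-43 cells and lower in N352S cells. It was negative for DST (-0.45), KIF5C (-1.22), CAPN2 (-0.40), GAP43 (-0.92), NCAM1 (-0.67), RET (-0.77), NOTCH2 (-0.97) and PMP22 (-1.14), which were lower in siTDP-43 cells and higher in N352S cells. Groups of 2 and 3 libraries are too small for a test of single outlying libraries.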

How the results depend on the processing

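No called direction reversed for any filament gene, TARDBP or named list gene in any alternative run. In the knockdown, NEFM, PRPH, VIM and NES were called in all 21 alternatives, the replicate block included (log2 0.65, -0.45, -0.22 and -0.49), and the block changed no call of a member. It gave 857 genes higher and 2697 lower, against 1059 and 3389 without it. NEFL was called in the knockdown with a mean of at least 5 TPM (-0.17), with array weights (-0.16) and without siControl replicate 1, with values from -0.24 to -0.10 when each library was left out. INA was called after scaling by the median of ratios (0.12) or quantile normalization (0.13), so that 2 members were higher after either. In N352S cells, PRPH, VIM, INA and NEFH were called in all 20 alternatives. NEFM was not called with no filter on low TPM or in a fit of only the groups compared (-0.38 in both), and with single libraries left out it ran from -0.50 to -0.25 and NEFL from -0.35 to -0.32, with 2 to 4 members called lower. For the difference between experiments, NEFL ran from 0.10 to 0.23 and NEFH from -0.44 to -0.27.

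Counts over all genes moved more. In the knockdown 1944 were higher and 2077 lower under median-of-ratios scaling, and 1932 and 2015 under quantile normalization. With single libraries left out, 669 to 1071 genes were higher, the lowest without siTDP-43 replicate 3. In N352S cells a fit of only the groups compared gave 901 higher and 990 lower, and single libraries left out gave 813 to 1554 higher and 1019 to 2194 lower. Of 51 results for TARDBP and the list genes named, 39 stayed on the same side of the threshold in every alternative. Where a group was left with 1 library, that library was assumed to vary like the others. Depth is unknown and could not be weighed.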
